A study of Mus musculus with 2 samples.

Results

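Gluconeogenesis and glucose sensing in hepatocytes were examined through 9 genes, chosen by name from the gene table of the files (9 of 27998 genes): Pck1, G6pc, Fbp1, Pcx, Ppargc1a, Sds, Gpt, Pklr and Slc2a2. The assay was scRNA-Seq of single cells in droplets, in which every droplet carries a barcode and every captured transcript a unique molecular identifier (UMI), so that each molecule is counted once. Hepatocytes came from C57BL/6 mice on normal diet (10 to 12 weeks old according to the labels), either with undamaged liver (0 h) or 48 h after partial hepatectomy (PHx48h), an operation that removes most of the liver and is followed by regrowth. The study's methods give the substrain as C57BL/6J. The design held 1 library per time point, each from 1 hepatocyte preparation obtained by collagenase perfusion. No test over samples was possible, and every difference below compares these 2 libraries, in which time point, preparation and library cannot be told apart. Intervals are 95% intervals that cover counting error only, not variation between mice or preparations.

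Gluconeogenesis is the synthesis of glucose from lactate, amino acids and glycerol, by which the liver supplies blood glucose during fasting. It uses the reversible reactions of glycolysis and bypasses the irreversible ones with its own enzymes. Pyruvate carboxylase (Pcx) and phosphoenolpyruvate carboxykinase (Pck1) together turn pyruvate into phosphoenolpyruvate, fructose-1,6-bisphosphatase (Fbp1) acts in the middle of the pathway, and the catalytic subunit of glucose-6-phosphatase (G6pc) releases free glucose. Serine dehydratase (Sds) and alanine aminotransferase (Gpt) make pyruvate from amino acids, and the coactivator PGC-1α (Ppargc1a) induces the pathway in fasting. Pyruvate kinase (Pklr) runs the opposite, glycolytic step, and GLUT2 (Slc2a2) is the glucose transporter of hepatocytes. Gluconeogenesis is a classic function of periportal hepatocytes, which lie near the portal vein, whereas perivenous hepatocytes lie near the central vein.

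The undamaged library held 59202 barcodes with a median of 1436 UMIs, and the PHx48h library held 1586 barcodes with a median of 6838.5 UMIs; 148 barcode sequences occurred in both. Levels are given as CPM, the UMIs of a gene per 1000000 non-mitochondrial UMIs summed over barcodes, in 2 classes set by the share of UMIs from 13 mitochondrial genes. The class over 30% mitochondrial held 3870 barcodes at 0 h (6.54%) and 765 at 48 h (48.2%), with 5778391 and 5103719 non-mitochondrial UMIs. The class under 2% held 52587 (88.8%) and 522 (32.9%) barcodes, with 78751891 and 3135996 such UMIs. The study's methods name a filter on high mitochondrial content without a threshold, and the number of cells it kept is well below the number of barcodes in either class at 0 h. Most barcodes of both classes at 0 h, and part of those at 48 h, therefore lie outside the cells the study used. All 10 hepatocyte markers were detected in both classes of both libraries. T, NK and B cell markers were at 0 in both classes at 48 h, and 12 and 21 barcodes over 30% mitochondrial held markers of another cell class, against 286 and 13 under 2%. Over 30% mitochondrial, the summed marker levels at 0 h and 48 h were 40.7 and 22.7 CPM for macrophages, 138 and 140 CPM for endothelial cells, 25.4 and 31.0 CPM for stromal cells and 54.5 and 27.6 CPM for red cells. Under 2% they were 44.3 and 41.5 CPM, 138 and 71.7 CPM, 31.0 and 182 CPM, and 246 and 27.7 CPM in the same order. Without the barcodes that held such markers, 6 and 7 of the 8 genes assessed differed 2-fold in either direction over 30% and under 2%, as many as with them. With these barcodes, 30.6% of all genes assessed were at least 2-fold higher at 48 h and 5.52% lower over 30%. Under 2% these shares were 25.8% and 21.6%, and the shares without these barcodes are not given here.

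Promoter sequence is shown for 3 genes chosen by name. They carry the letters of a known hormone or carbohydrate response element and differed at least 2-fold between the libraries over 30% mitochondrial. Ppargc1a, which also carries such letters and was below the level at which genes were assessed, is not shown. The RefSeq table (GRCm38.p6) had an entry for 7 of the 9 genes, and Sds and Gpt had none. Windows ran from 250 bases before to 50 bases after each start, and 5 motifs were searched on both strands. The letters TTACGT of a cAMP response element (CRE-like) occurred in Pck1, G6pc and Ppargc1a, and in 2.72% of all 32851 promoter windows. The carbohydrate response element, searched as its paired and spaced E-box-like boxes, occurred in Pklr at the second of its listed starts, and in 0.0457% of all windows. The forkhead core TGTTT (50.5% of all windows) was found in G6pc only, TATAAA (13.6%) in G6pc and Pklr, and CACGTG (7.15%) in Pcx only. In G6pc the CRE-like match at -162 to -157 overlapped a second one on the opposite strand at -160 to -155, and the forkhead match at -25 to -21 overlapped TATAAA. Capitals mark the CRE-like letters in Pck1 (-93 to -88) and G6pc (-162 to -157) and the carbohydrate response element in Pklr (-170 to -154), counted from the RefSeq start. Sequences are on the plus strand, begin at -250 and stop before the first base that GENCODE lists as untranslated region. Those of Pck1 and G6pc lie upstream of the gene, and that of Pklr lies inside its gene, which starts at 89136142. These matches describe letters in a window and were not tested for binding.
Pck1, chr2:173152823-173153047: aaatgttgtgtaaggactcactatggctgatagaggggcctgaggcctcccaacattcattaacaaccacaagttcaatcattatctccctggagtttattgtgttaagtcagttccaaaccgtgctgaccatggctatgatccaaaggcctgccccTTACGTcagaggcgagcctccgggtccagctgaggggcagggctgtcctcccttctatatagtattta
G6pc, chr11:101367466-101367560: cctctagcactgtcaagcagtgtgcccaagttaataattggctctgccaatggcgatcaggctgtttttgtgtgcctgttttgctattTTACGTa
Pklr, chr3:89136373-89136571: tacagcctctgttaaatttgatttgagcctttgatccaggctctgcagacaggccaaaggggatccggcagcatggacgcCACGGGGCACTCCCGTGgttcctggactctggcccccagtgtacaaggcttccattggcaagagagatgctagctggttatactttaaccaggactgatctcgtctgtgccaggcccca

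The first comparison asked how these genes differed between undamaged and regenerating liver. In barcodes over 30% mitochondrial the enzymes of the pathway did not move together. Pck1, Fbp1 and Sds were higher at 48 h, whereas G6pc, which catalyses the last step, was lower, as were Pklr and Slc2a2. A gene was assessed when its mean over both libraries was at least 10 CPM, which 8 of the 9 genes reached, and it was called when its level differed at least 2-fold. By this rule 3 genes were higher, against 30.6% of all 6718 genes assessed, and 3 were lower, against 5.52%. The median log2 ratio (48 h to 0 h) over all 9 genes was 0.35, and over the 8 genes assessed it was -0.09; the median over all genes assessed was 0.54. When this general shift was subtracted, 1 of the 8 genes (Sds) was called higher, against 14.1% of all genes, and 4 (G6pc, Gpt, Pklr and Slc2a2) lower, against 14.6%.

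The cytosolic and mitochondrial bypass enzymes differed in size of change. Pck1 (chromosome 2, 173153048 to 173159273) was at 317 CPM (interval 303 to 332; 1832 UMIs) at 0 h and at 903 CPM (877 to 929; 4607 UMIs) at 48 h. This was 2.85-fold higher at 48 h, a log2 ratio of 1.51 (1.43 to 1.59). Fbp1 (chromosome 13, 62864753 to 62888282) was at 296 CPM (282 to 311) and 690 CPM (668 to 714), 2.33-fold higher at 48 h. The intervals of the 2 libraries lay far apart for both genes. Pcx (chromosome 19, 4510472 to 4621752) was at 174 CPM (164 to 185) at 0 h and 223 CPM (210 to 236) at 48 h, a log2 ratio of 0.35 (0.23 to 0.48). Relative to the median of all genes its sign turned, to -0.19 (-0.32 to -0.07), while Pck1 and Fbp1 stayed positive at 0.96 and 0.68. Pcx overlaps Lrfn4 on the opposite strand.

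G6pc (chromosome 11, 101367561 to 101377903) showed the largest difference of the 9 genes in this class. It was at 242 CPM (230 to 255; 1401 UMIs) at 0 h and 54.9 CPM (48.6 to 61.7; 280 UMIs) at 48 h. Its level was thus 4.42-fold lower at 48 h, a log2 ratio of -2.14 (-2.33 to -1.96). The opposite direction of Pck1 and G6pc was present in each class and each zonal group examined. Both promoter windows hold the CRE-like letters printed above, and any link of these letters to the levels was not tested.

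Of the amino acid entry enzymes, Sds was higher and Gpt lower. Sds (chromosome 5, 120476526 to 120483932) was at 123 CPM (114 to 132) at 0 h and 366 CPM (349 to 383) at 48 h, 2.98-fold higher with a log2 ratio of 1.58 (1.45 to 1.70). Gpt (chromosome 15, 76695716 to 76699686) was at 506 CPM (488 to 525) and 352 CPM (335 to 368), a log2 ratio of -0.53 (-0.61 to -0.44). The difference in Gpt was under 2-fold before the general shift was subtracted and -1.07 after it. Sds overlaps Gm15690 and Plbd2 on the opposite strand.

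The genes of glucose uptake and glycolysis were both lower at 48 h. Slc2a2 (chromosome 3, 28697903 to 28731359) was at 231 CPM (219 to 244) at 0 h and 111 CPM (102 to 120) at 48 h, 2.09-fold lower. Pklr (chromosome 3, 89136142 to 89146784) was at 41.2 CPM (36.1 to 46.8; 238 UMIs) and 17.8 CPM (14.4 to 21.9; 91 UMIs), 2.31-fold lower. Neither pair of intervals overlapped. The regulator Ppargc1a (chromosome 5, 51454250 to 51567726) had only 30 UMIs at 0 h (5.19 CPM, 3.5 to 7.41) and 62 at 48 h (12.1 CPM, 9.31 to 15.6), too few to be assessed, and its log2 ratio of 1.23 carried a wide interval (0.58 to 1.91). Pklr overlaps Hcn3 and Slc2a2 overlaps 1700112D23Rik on the opposite strand.

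**Figure D1:**
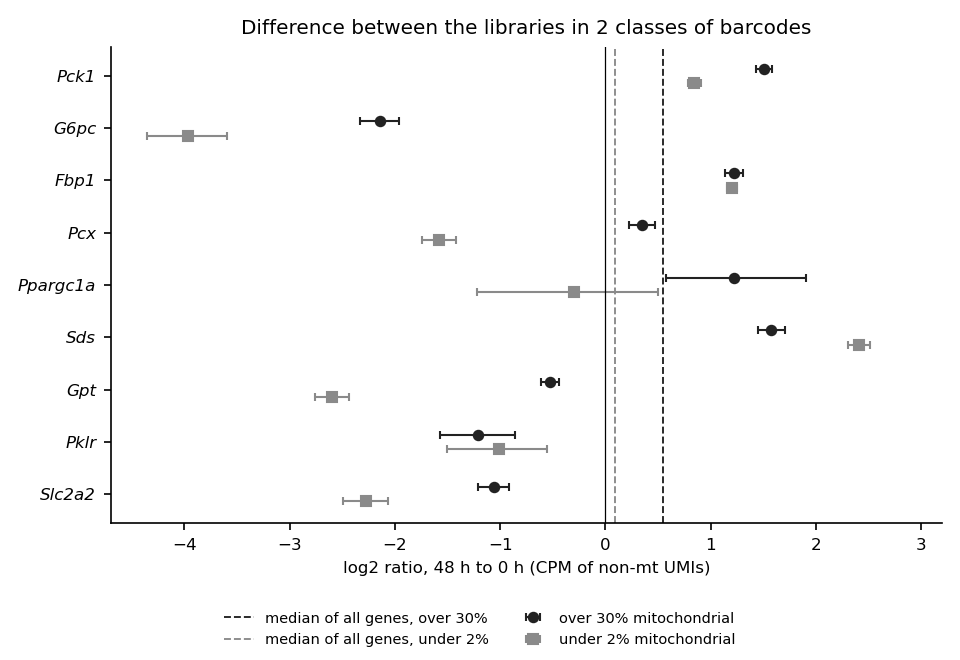
Log2 ratio of 48 h to 0 h (x axis, CPM of non-mitochondrial UMIs) for each gene in barcodes over 30% (black circles) and under 2% mitochondrial (grey squares), with 95% counting intervals; dashed lines mark the medians of all genes, 0.54 and 0.09. Pck1, Fbp1 and Sds lie to the right of 0 and G6pc, Gpt, Pklr and Slc2a2 to the left in both classes, while Pcx and Ppargc1a lie on opposite sides, the latter with an interval under 2% that includes 0.

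In barcodes under 2% mitochondrial the same question gave larger differences for most of the genes that were lower. G6pc was at 294 CPM (290 to 298) at 0 h and 18.8 CPM (14.3 to 24.3; 59 UMIs) at 48 h, 15.6-fold lower. Gpt was 6.05-fold lower (625 and 103 CPM), Slc2a2 4.85-fold lower (283 and 58.4 CPM) and Pcx 2.98-fold lower (304 and 102 CPM). Pklr was at 25.0 and 12.4 CPM, 2.01-fold lower. Sds was 5.33-fold higher at 48 h (54.9 and 293 CPM), Fbp1 2.31-fold higher (484 and 1117 CPM), and Pck1, at 376 and 676 CPM, 1.80-fold higher. Ppargc1a did not separate from counting error (5.08 and 4.15 CPM; log2 ratio -0.29, interval -1.22 to 0.50). Of the 8 genes assessed, 2 were thus called higher, against 25.8% of all 5716 genes, and 5 lower, against 21.6%. The median over all 9 genes was -1.01, against 0.09 over all genes. Whether the barcodes of this class at 0 h held cells or only free transcripts was not tested, a limit given with the zonal groups below.

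The difference of the log2 ratios between the classes (over 30% minus under 2%) was then taken for each gene. It was 2.07 (1.89 to 2.25) for Gpt, 1.93 (1.73 to 2.13) for Pcx, 1.82 (1.41 to 2.23) for G6pc, 1.22 for Slc2a2, 1.52 (0.50 to 2.53) for Ppargc1a and 0.66 for Pck1, and it had the opposite sign for Sds, at -0.84 (-1.0 to -0.68). For Fbp1 it was 0.01 (-0.08 to 0.11) and for Pklr -0.20 (-0.78 to 0.37). The intervals of 7 of the 9 genes excluded 0, against 64.9% of 6345 genes, so a difference between the classes was common to most genes. Against the difference of the 2 general medians (0.45) all 9 intervals were away from it, against 56.8% of genes.

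Across finer steps of mitochondrial share, Gpt at 48 h went from 103 CPM under 2% to 103 CPM at 2% to 10%, 220 CPM at 10% to 30%, 311 CPM at 30% to 50% and 386 CPM over 50%. Pcx at 48 h followed the same order from 10% upwards, at 152, 218 and 226 CPM, whereas at 0 h it declined step by step from 304 CPM under 2% to 158 CPM over 50%. The 2 libraries therefore crossed for Pcx between 10% to 30% and 30% to 50%. G6pc was lower at 48 h in each of the 5 steps, with a highest level of 55.3 CPM at 48 h and a lowest of 233 CPM at 0 h. Median depth differed between steps (835 to 2234.5 non-mitochondrial UMIs per barcode at 0 h and 3665 to 7479 at 48 h), and its part in these differences was not tested.

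**Figure D2:**
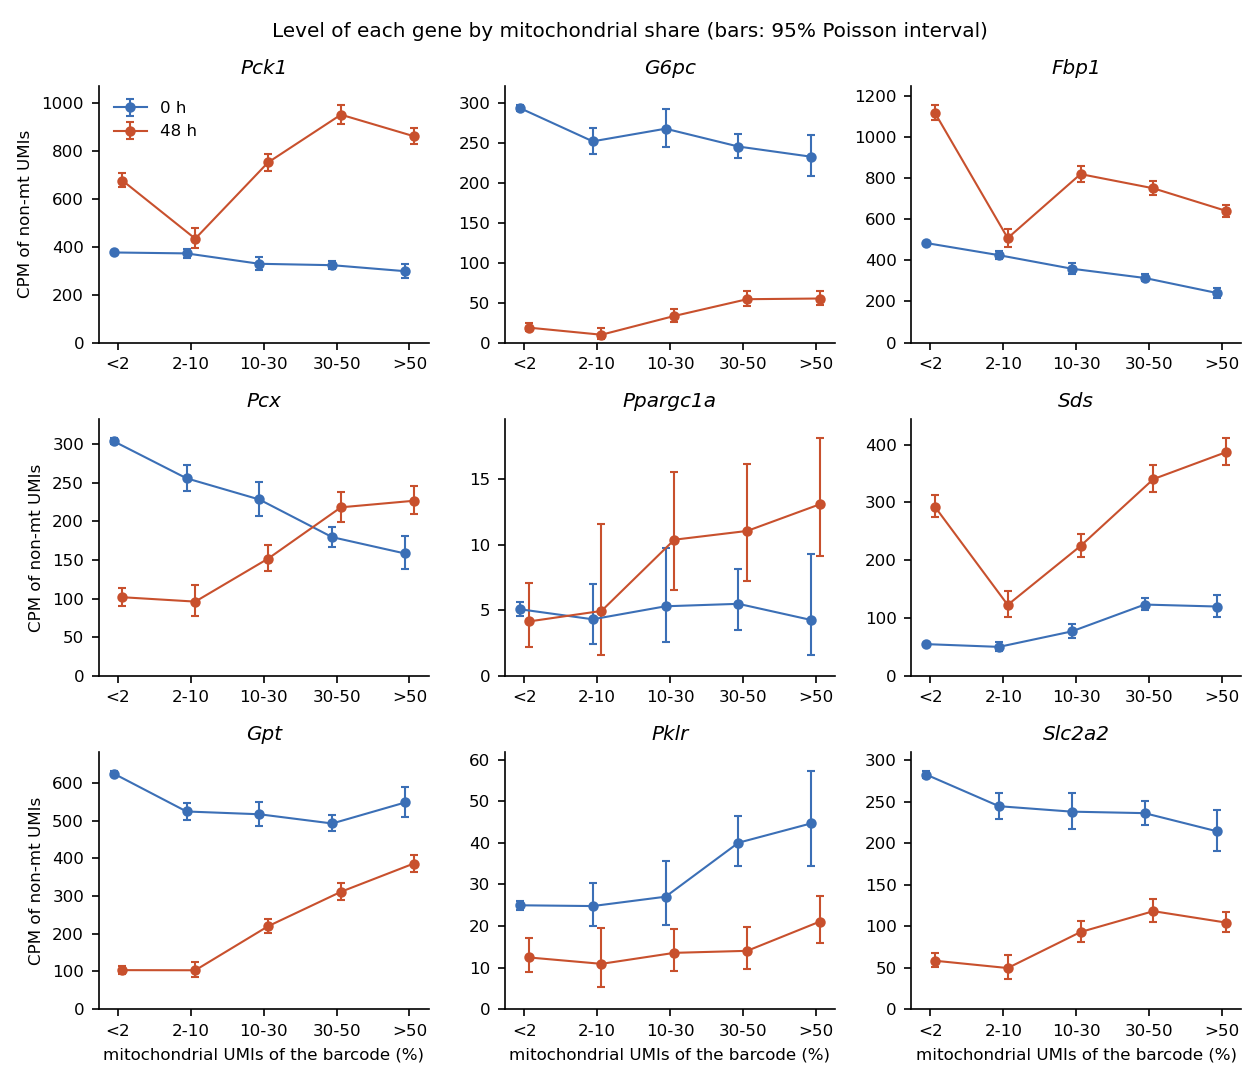
Level of each gene (y axis, CPM of non-mitochondrial UMIs) in 5 steps of mitochondrial share (x axis, percent of the UMIs of a barcode) at 0 h (blue) and 48 h (orange), with 95% Poisson intervals. The lines of Pcx cross, from 304 against 102 CPM under 2% to 158 against 226 CPM over 50%, and so do those of the sparse Ppargc1a, from 5.08 against 4.15 CPM to 4.26 against 13.1 CPM.

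The next question was where in the lobule these genes were expressed and whether this differed after PHx. In each library and class separately, barcodes were divided into 3 groups of equal size (perivenous, middle and periportal). The division used the periportal share of their periportal and perivenous marker UMIs, and none of the 9 genes was among these markers. Sds followed this order most closely. At 0 h, in barcodes over 30% mitochondrial, it was at 19.1 CPM in the perivenous group, 139 CPM in the middle group and 192 CPM in the periportal group, 10.0-fold higher at the periportal end (log2 ratio 3.33, 2.81 to 3.90). At 48 h its levels were 67.2, 305 and 560 CPM, 8.33-fold higher at the periportal end. Sds was thus higher at 48 h in each group, while their order was kept.

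Pck1 had the same order on a smaller scale. Its levels were 170, 342 and 416 CPM from the perivenous to the periportal group at 0 h, a log2 ratio of 1.29 (1.09 to 1.49). At 48 h they were 562, 796 and 1148 CPM, a log2 ratio of 1.03 (0.91 to 1.15). The perivenous group at 48 h therefore lay above the periportal group at 0 h. The ratio was smaller at 48 h by 0.26 on the log2 scale (interval of the change -0.49 to -0.03). The groups rested on a median of 16 zonal marker UMIs per barcode at 0 h and 57 at 48 h. The part of this in the changes given here and below was not tested, and their intervals do not cover it. The median ratio over all genes (-0.26 at 0 h and -0.07 at 48 h) was not subtracted from these changes.

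G6pc, Fbp1 and Slc2a2 were only slightly higher in the periportal group at 0 h, with log2 ratios of 0.30, 0.31 and 0.39 and intervals above 0, and Pklr was at 0.70 (0.19 to 1.22). Ppargc1a rested on 5, 10 and 15 UMIs, and its interval included 0. Pcx and Gpt ran the other way at 0 h. Pcx was at 220 CPM in the perivenous and 146 CPM in the periportal group (-0.59, -0.82 to -0.36), and Gpt at 595 and 447 CPM (-0.41, -0.55 to -0.28). At 48 h Pcx was at 237 and 217 CPM (-0.12, -0.33 to 0.09) and Gpt at 311 and 352 CPM (0.18, 0.00 to 0.36). Their changes between the libraries were 0.47 (0.16 to 0.77) and 0.59 (0.37 to 0.81), and those of the remaining genes other than Pck1 had intervals that included 0.

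Counted over the 9 genes, 7 were higher in the periportal group by any amount at 0 h, against 28.6% of 5925 genes assessed, and 7 at 48 h, against 43% of 7172. Past 2-fold there were 3 at 0 h (Sds, Pck1 and the sparse Ppargc1a; background 1.5%) and 2 at 48 h (Sds and Pck1; background 2.12%). The median log2 ratio was 0.39 at 0 h and 0.18 at 48 h, against -0.26 and -0.07 over all genes. As a check of the groups, 5 zonal genes outside the marker lists were examined. The periportal genes had log2 ratios of 2.00 at 0 h and 1.73 at 48 h (Apoa4) and of 1.77 (-0.56 to 5.04) and 1.24 (Mfsd2a). The perivenous genes had -2.42 and -3.13 (Cyp2c37), -2.43 and -3.03 (Cyp2c54), and -0.89 and only -0.17 (Cyp3a11). The zonal groups have no natural border: 307 and 552 of the 3870 barcodes at 0 h, and 73 and 178 of the 765 at 48 h, lay within 5 percentage points of the lower and upper limits. At 48 h the periportal group was deeper (7083 against 3654 non-mitochondrial UMIs at the median), and the part of depth was not tested.

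Under 2% mitochondrial the zonal groups hardly differed at 0 h. Sds was at 53.2, 54.0 and 57.6 CPM there and Pck1 at 373, 376 and 379 CPM, and Cyp2c37 had a log2 ratio of only 0.04. Apoa4 was at 0.02 and Cyp3a11 at -0.0006. At 500 UMIs per barcode the variance of the counts was 0.997 (Ppargc1a) to 1.02 (G6pc) times their mean. Whether these barcodes held cells or only free transcripts was not tested. The 48 h to 0 h ratios under 2% and the differences between the classes carry that limit. At 48 h the check genes of this class gave a mixed picture: Apoa4 ran against its label (-0.25, -0.39 to -0.12) and Mfsd2a was at -0.01, while Cyp2c37, Cyp2c54 and Cyp3a11 were at -0.79, -0.58 and -0.48. The groups of this class are thus named by the marker lists alone. The group with the highest periportal marker share had higher levels of Sds, at 193, 222 and 436 CPM (1.18, 0.93 to 1.43), and of Pck1 (0.45, 0.30 to 0.61), whereas G6pc was lower in that group (-1.64, -2.74 to -0.64) on 31, 16 and 12 UMIs. In this class 21939 and 21418 of 52587 barcodes at 0 h, and 205 and 186 of 522 at 48 h, lay within 5 percentage points of a limit.

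**Figure D3:**
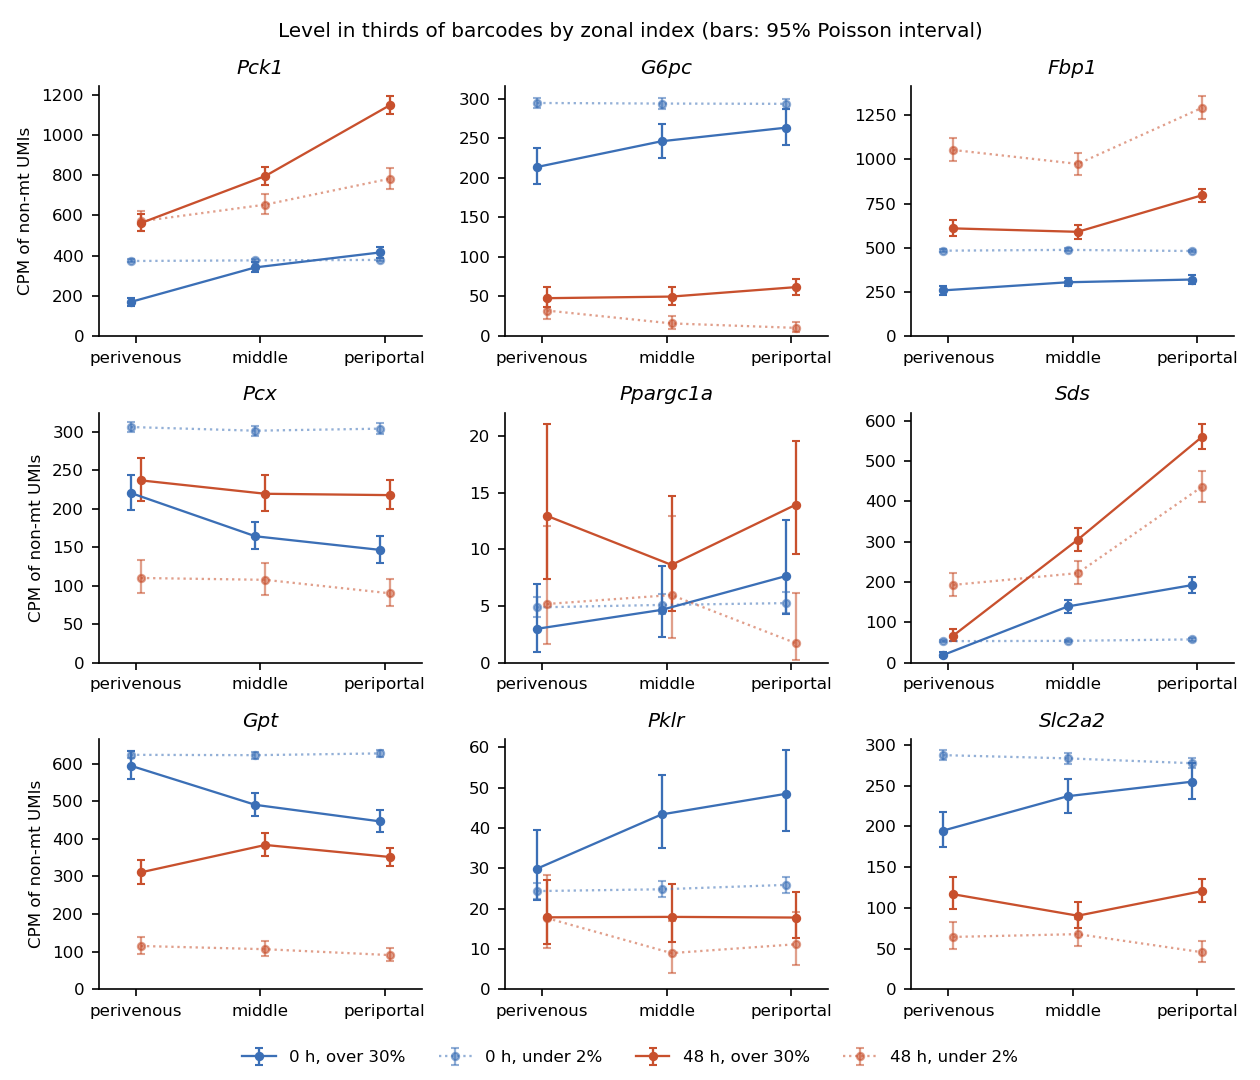
Level of each gene (y axis, CPM of non-mitochondrial UMIs) in the perivenous, middle and periportal groups at 0 h (blue) and 48 h (orange), for barcodes over 30% (solid) and under 2% mitochondrial (dotted), with 95% Poisson intervals. Sds climbs from 19.1 to 192 CPM at 0 h and from 67.2 to 560 CPM at 48 h in the solid lines, and its dotted line at 0 h is nearly flat.

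Because the sum of the perivenous marker list was lower at 48 h in barcodes over 30% mitochondrial (9101 and 4866 CPM) and that of the periportal list higher (5926 and 7257 CPM), the 48 h to 0 h ratios were also taken within each group. Not all perivenous markers were lower. Oat (370 and 626 CPM), Cyp2a5 (392 and 580 CPM), Rgn (194 and 337 CPM) and Aldh1a1 (520 and 851 CPM) were higher at 48 h. Tbx3 was also higher, with overlapping intervals, and the other markers of this list were lower. The limits between the groups lay at periportal shares of 33.3% and 64.9% at 0 h and of 48.4% and 75% at 48 h. A group of the same name therefore does not hold the marker share fixed between the libraries. Pck1 had log2 ratios of 1.73, 1.22 and 1.47 in the perivenous, middle and periportal group, and Sds of 1.81, 1.13 and 1.54. G6pc had ratios of -2.16, -2.30 and -2.09. Fbp1 was likewise higher, and Gpt, Pklr and Slc2a2 lower, in each group, with the interval of Pklr reaching 0 in the perivenous group (-1.54 to 0.00). Pcx had ratios of 0.10 (-0.12 to 0.33), 0.42 and 0.57.

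Detection per barcode was compared at an equal depth of 500 non-mitochondrial UMIs, which left out 75 of the 3870 barcodes over 30% at 0 h and none at 48 h. A share of 13.4% (12.3% to 14.5%) of these barcodes held a Pck1 UMI at 0 h and 32.7% (29.4% to 36.1%) at 48 h. G6pc was found in 11.3% (10.3% to 12.4%) and 2.61% (1.60% to 4.01%), and Sds in 4.69% (4.04% to 5.41%) and 12.5% (10.3% to 15.1%). Without thinning these shares were 31.0% and 88.9% for Pck1, 27.0% and 23.3% for G6pc, and 14% and 58.8% for Sds, so the shares of G6pc lay closer together where depth was unequal. Free transcripts give UMIs in any droplet. The 770 barcodes at 0 h and 142 at 48 h that held markers of another cell class served as background. Their median depth was 2248 and 6286, against 1229 and 4411 over 30% mitochondrial. Of these background barcodes, 12 at 0 h and 21 at 48 h were themselves over 30% mitochondrial. In those 12 the hepatocyte marker Alb was at 32046 CPM, against 45021 CPM in the rest of the class. In those 21 it was at 46817 CPM, against 51925 CPM. Whether the background barcodes also held hepatocyte transcripts of their own was not tested, and the background can be too high for that reason.

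At 0 h the shares over 30% mitochondrial were at or below this background for Pck1 (15.2%), Fbp1 (12.2% against 15.6%), Pcx (8.14% against 9.74%) and Ppargc1a (0.343% against 0.390%), and close to it for Slc2a2 (10.2% against 10%). By this measure detection of these 5 genes at 0 h was not separated from background. Their 48 h to 0 h ratios carry that limit. The background may itself hold hepatocyte transcripts, so these shares do not show that the UMIs were free transcripts. Between the perivenous and periportal groups at 0 h the summed levels of Pck1, Fbp1, Pcx and Slc2a2 differed beyond counting error, and that of Ppargc1a did not. What this means for the source of their UMIs was not tested. G6pc (background 8.70%), Sds (2.08%), Gpt (23.2% against 16.9%) and Pklr (2.11% against 0.909%) lay above it, and the intervals of Sds and Gpt did not overlap those of the background. The intervals of G6pc and Pklr did overlap them. Detection of G6pc and Pklr at 0 h was therefore not separated from background either, and their 48 h to 0 h ratios carry the same limit. At 48 h the intervals lay apart for Pck1 (background 20.4%, 14.1% to 28%), Fbp1 (27.5% against 11.3%) and Gpt (17.5% against 7.75%). They overlapped for the other genes, G6pc and Sds among them, so detection of those at 48 h was not separated from background by this measure. Ppargc1a and Pklr were found in 0 of the 142 background barcodes, which allows a share with a UMI at this depth of up to 2.11% (3 counts of 142), and the exact interval reaches 2.56%.

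**Figure D4:**
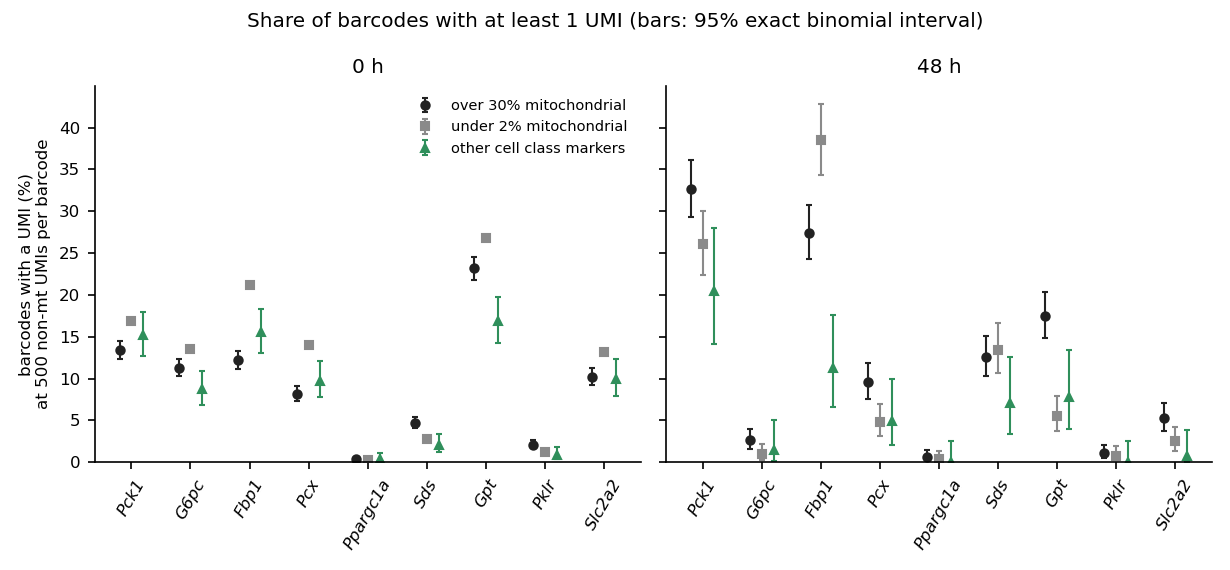
Share of barcodes with at least 1 UMI of each gene (y axis, percent) at 500 non-mitochondrial UMIs per barcode, at 0 h (left) and 48 h (right), over 30% mitochondrial (black), under 2% (grey) and with markers of another cell class (green), with 95% exact binomial intervals. At 0 h the green triangles of Pck1, Fbp1 and Pcx lie above the black circles, and at 48 h the black circles of Pck1 and Fbp1 lie at 32.7% and 27.5%, above the green ones.

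Whether the genes differed with the share of proliferation gene UMIs was examined at 48 h over 30% mitochondrial, in the 76 barcodes with the highest such share against the other 689. The 76 barcodes held at least 2 such UMIs (median 18.5), against a median of 2 in the others, so both sets include barcodes with few of them. Pck1 was at 1115 CPM in the former and 866 CPM in the latter, a log2 ratio of 0.36 (0.26 to 0.47), and Fbp1 at 773 and 676 CPM (0.19, 0.06 to 0.32). G6pc was at 53.0 and 55.2 CPM (-0.06, -0.58 to 0.43) and Sds at 355 and 367 CPM (-0.05, -0.24 to 0.14), and the intervals of the remaining 5 genes also included 0. None of the 9 genes differed 2-fold, which 5.8% of 7291 genes did in the higher and 1.93% in the lower direction. The 76 barcodes were deeper (7186.5 against 4161 non-mitochondrial UMIs at the median), and the part of depth was not tested.

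The other genes of glucose metabolism were taken from lists of 86 genes, of which 67 were assessed over 30% mitochondrial. Of these, 26 were higher at 48 h and 1 was lower, against 30.6% and 5.52% of all genes assessed. With the general shift subtracted the counts were 10 and 8, against 14.1% and 14.6%, so that the lists as a whole then lay close to the background. In the list of further gluconeogenesis genes 10 of 17 were higher and none lower, with a median log2 ratio of 1.19 over those assessed. With the general shift subtracted 3 were higher and 1, G6pc3, was lower. The 3 higher genes were the malate dehydrogenase Mdh2 (93.1 and 373 CPM, 4.0-fold), the lactate dehydrogenase Ldha (275 and 1093 CPM, 3.97-fold) and the Sds-like gene Sdsl (17.1 and 65.1 CPM, 3.8-fold). Under 2% mitochondrial 5 of 16 genes of this list were higher and 3 lower, against 25.8% and 21.6% of all genes. Slc37a4, which carries glucose-6-phosphate to the enzyme encoded by G6pc, was at 126 CPM in both libraries (log2 ratio 0.00, -0.15 to 0.16), beside the 4.42-fold lower level of G6pc. This held over 30% only: Slc37a4 was at 120 and 36.0 CPM under 2% (-1.73, -2.01 to -1.46) and had a log2 ratio of -0.84 at 2% to 30%, so it was lower together with G6pc in these classes.

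Glycolysis genes were mostly higher before the general shift was subtracted, whereas Pklr was lower. In that list 10 of 17 were higher and 1 lower, against 30.6% and 5.52% of all genes. With the general shift subtracted 6 were higher and 2 lower, against 14.1% and 14.6%. Under 2% mitochondrial 7 of 16 were higher and 1 lower, against 25.8% and 21.6%. Pgk1 was at 2.42 CPM (14 UMIs) at 0 h and 36.2 CPM (185 UMIs) at 48 h, a log2 ratio of 3.90 (3.12 to 4.80), and the enolase Eno1 at 18.2 and 204 CPM (3.49, 3.2 to 3.79). Gapdh (233 and 892 CPM), Tpi1 (201 and 651 CPM) and Pfkfb1 (6.06 and 26.6 CPM), which encodes an enzyme that sets the level of fructose-2,6-bisphosphate, were 3.82-fold, 3.25-fold and 4.4-fold higher. The gene that was lower over 30% was Pdk2, a kinase of pyruvate dehydrogenase (40.0 and 18.2 CPM, log2 ratio -1.13). Pgk1, Eno1 and Gapdh have near-identical copies in the genome, and how the authors' counting divided reads among them was not tested.

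Of the glycogen genes 3 of 10, and of the regulators 3 of 23, were higher, and none was lower, against 30.6% and 5.52% of all genes. With the general shift subtracted, 0 glycogen genes and 1 regulator (Foxo1) were higher, against 14.1% of all genes. In the other direction 1 glycogen gene and 4 regulators were then lower, against 14.6%. Of the regulators of the 9 genes, Foxo1 was at 13.5 and 43.7 CPM (log2 ratio 1.69) and Hnf4a at 95.9 and 259 CPM (1.43), whereas the glucagon receptor Gcgr was at 412 and 230 CPM (-0.84) and Mlxipl, which encodes the carbohydrate response factor ChREBP, at 349 and 193 CPM (-0.85). Under 2% mitochondrial the log2 ratios of Foxo1, Hnf4a, Gcgr and Mlxipl were 0.07 (-0.35 to 0.47), 0.56, -1.34 and -1.22. These 4 regulators, Slc37a4 and G6pc3 were named after their values were seen. Under 2% mitochondrial, 13 of 61 genes of the lists were higher and 17 lower, against 25.8% and 21.6% of all genes. Among these were 0 of 10 glycogen genes higher and 5 lower, and 1 of 19 regulators higher and 8 lower.

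**Figure D5:**
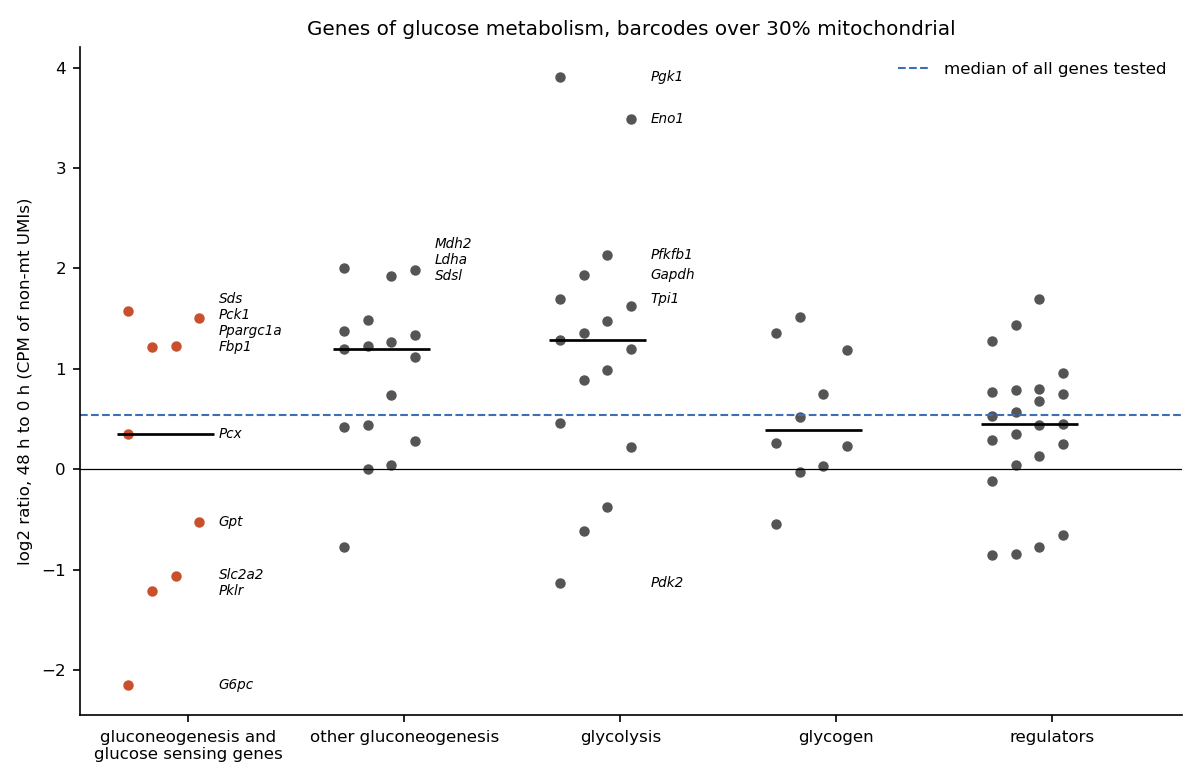
Log2 ratio of 48 h to 0 h (y axis, CPM of non-mitochondrial UMIs) in barcodes over 30% mitochondrial for the 9 genes (orange) and the assessed genes of 4 further lists (grey); black bars are list medians and the dashed line is the median of all genes assessed (0.54). The 9 genes spread from -2.14 (G6pc) to 1.58 (Sds), and most of the other gluconeogenesis and glycolysis genes lie above the dashed line.

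The genes whose levels ran most alike were sought over 12 profiles (2 libraries, 2 mitochondrial classes and 3 zonal groups), among genes of at least 50 CPM, as a description. Profiles of 1 library share their preparation and depth. For Sds these were the periportal marker Hsd17b13 (Pearson r = 0.896), whose UMIs helped to set the zonal groups, and Pck1 (0.884). For Pck1 they were Pla2g12b (0.948) and Tm4sf4 (0.932), and for G6pc Lamp1 (0.991) and Gm4788 (0.987). Fbp1 ran with Vdac2 (0.990) and Smim10l1 (0.984), Pcx with Cpt1a and Uso1 (0.979 each), and Gpt with Sardh (0.995) and Ces1c (0.991). Pklr ran with Lipc (0.956) and Pcdh1 (0.941), and Slc2a2 with Slc38a4 and Tpp1 (0.989 each). At 500 UMIs per barcode the variance of the counts over barcodes was 0.969 to 1.06 times their mean at 0 h over 30% mitochondrial, and at 48 h it was highest for Sds, at 1.21 times.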

How the data were processed

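Per the labels, libraries were made with version 2 chemistry of 10x Genomics, and Cell Ranger and mm10 are named in the submitters' processing notes. The tool's version and the annotation are not given in the sources used here. The authors deposited whole UMI counts per gene and barcode, without normalization. Levels were computed as CPM of non-mitochondrial UMIs, with exact Poisson intervals for levels, exact conditional binomial intervals for ratios, Wald intervals for differences of log2 ratios and exact (Clopper-Pearson) intervals for shares. A gene was assessed at a mean of at least 10 CPM over the 2 libraries and called at 2-fold. A barcode held markers of another class with at least 5 UMIs over at least 3 genes of one list. Doublets were not called. Positions are from GENCODE M21 (GRCm38), matched by gene identifier for all 9 genes. Total depth was 96118593 UMIs at 0 h and 18198719 at 48 h.

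The genes and lists were chosen with earlier results of these data known. All 9 genes were named, with up to 8 genes at each end of the further lists past 2-fold, and the 2 most alike genes of at least 50 CPM on log2(CPM + 5). Ratio and interval functions were tested on simulated data. Python 3.11.15, numpy 2.4.6, scipy 1.17.1, pandas 2.3.3, matplotlib 3.10.9, R 4.3.3 and edgeR 4.0.16 (TMM factors only) were used.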

Additional observations from a re-analysis of the deposited data

Results flagged for a closer look

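Pcx differed in direction between the classes of barcodes. Its log2 ratio of 48 h to 0 h was 0.35 (0.23 to 0.48) over 30% mitochondrial and -1.58 (-1.74 to -1.42) under 2%, a difference of 1.93. Ppargc1a also had opposite signs (1.23 and -0.29), with an interval under 2% that included 0. Each class came from 1 library per time point, so this difference was not tested over samples. Relative to the median of all genes the ratio over 30% was -0.19, so that both classes then had the same sign.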

How the results depend on the processing

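The median log2 ratio of the 9 genes over 30% mitochondrial (0.35) was the value of 1 gene, Pcx, and changed with the scaling. It was 0.10 without the 20 most abundant genes, -0.21 with TMM factors, -0.18 with median-of-ratios factors and -0.19 after subtraction of the median of all genes, and the value of Pcx was -0.21, -0.18 and -0.19 under the last 3 of these. It was 0.52 with limits of over 50% and under 5% mitochondrial, and -0.041 without the 1% of barcodes with the most UMIs of each gene, where Ppargc1a had no UMIs left at 0 h. The other 74 of 80 alternative values of the main results kept their direction and stayed within the spread or within 1.5 times the main count. Of 250 alternative values of the ratios of single genes between the libraries, 65 lay outside the main interval and 3, all of Pcx, changed sign. Of 72 detection shares at other depths 68 lay outside theirs, as did 5 of 90 zonal ratios and 1 of 18 proliferation ratios. G6pc ranged from -2.70 to -1.96 and Pck1 from 0.95 to 1.57 over 14 settings. Called counts over 30% were 1 higher and 4 lower with TMM factors, and 10 higher and 8 lower among the further glucose genes. The median of all genes was then -0.04, and the share of all genes called with TMM factors is not given here. The counts were the same with the general median subtracted, where 14.1% of all genes were higher and 14.6% lower. Subtraction of the general median and leaving out the shared barcode sequences were chosen after seeing the data. No paired analysis was possible because each time point had 1 library. Ppargc1a and, at 48 h, Pklr and G6pc under 2% are limited by low counts.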
